A study of Sus scrofa with 12 samples.

Results

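The genes described here are those whose products mark bone and hypertrophic cartilage, the enlarged cartilage that mineralises before bone replaces it: COL10A1, IBSP, SPP1, ALPL, RUNX2, SP7 and BGLAP. The rule that picked them used names and no measured value, and the list was drawn up with earlier results of these data known. Of the 7 genes, 4 were in the count table of 22198 genes, and 2 of these, IBSP and SPP1, reached the minimum, which was 10 counts in all libraries of either group. The identifiers of ALPL, SP7 and BGLAP in the table of gene names matched no row, and these 3 genes were not analysed here.

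RNA was taken from the central ventral annulus fibrosus, the collagenous ring of the intervertebral disc, at L3-4 of crossbred, skeletally immature pigs of both sexes that were 3 to 4 months old. The Hyperloaded group had 6 libraries from 4 pigs, which were anaesthetised for 4 h while manual loads of 400 N were applied at L3 every 1 or 2 min. The Non-loaded Control group had 6 libraries from 6 pigs, anaesthetised for 4 h without load. The labels did not say which Hyperloaded libraries came from the same pig, so each p-value reflects library-to-library spread only and would be too small for libraries of the same pig.

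Type X collagen, encoded by COL10A1, is laid down almost solely by hypertrophic chondrocytes. RUNX2 and SP7 are transcription factors that drive chondrocyte hypertrophy and osteoblast differentiation. ALPL encodes tissue-nonspecific alkaline phosphatase, which frees phosphate for mineral, and BGLAP encodes osteocalcin, a late osteoblast product. IBSP (bone sialoprotein) and SPP1 (osteopontin) encode acidic, phosphorylated matrix proteins that bind hydroxyapatite and integrins. Bone sialoprotein is known for promoting the first mineral deposits and osteopontin for restraining crystal growth, and osteopontin is also made by macrophages. The annulus is not normally mineralised, although cartilage endplates and growth plates lie beside it in an immature spine.

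IBSP and SPP1 lay near each other in a cluster of integrin-binding glycoprotein genes, and their promoters are shown because these were the members with enough counts to test. The promoter of COL10A1 is shown because 1 Hyperloaded library held nearly all of its counts. On Sscrofa11.1 with the annotation of RefSeq, IBSP lay at chr8:131208281-131222048, SPP1 at chr8:131077786-131085334 and COL10A1 at chr1:81766829-81773818, all on the minus strand, and RUNX2 lay at chr7:40106581-40353304 on the plus strand. Each sequence below is the 250 bases before the annotated start, read 5′ to 3′ on the strand of the gene, with searched motifs in capitals. The windows are chr8:131222049-131222298 for IBSP, chr8:131085335-131085584 for SPP1 and chr1:81773819-81774068 for COL10A1.
IBSP: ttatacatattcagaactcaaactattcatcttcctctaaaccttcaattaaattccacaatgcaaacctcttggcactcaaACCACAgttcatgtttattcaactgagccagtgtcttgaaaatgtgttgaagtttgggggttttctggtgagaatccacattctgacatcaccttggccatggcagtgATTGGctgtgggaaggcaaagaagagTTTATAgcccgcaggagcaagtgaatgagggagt
SPP1: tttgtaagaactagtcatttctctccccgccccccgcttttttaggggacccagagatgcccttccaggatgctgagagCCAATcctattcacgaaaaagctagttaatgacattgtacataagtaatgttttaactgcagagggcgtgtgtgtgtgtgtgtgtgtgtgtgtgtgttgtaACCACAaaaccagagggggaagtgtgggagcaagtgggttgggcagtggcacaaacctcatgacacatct
COL10A1: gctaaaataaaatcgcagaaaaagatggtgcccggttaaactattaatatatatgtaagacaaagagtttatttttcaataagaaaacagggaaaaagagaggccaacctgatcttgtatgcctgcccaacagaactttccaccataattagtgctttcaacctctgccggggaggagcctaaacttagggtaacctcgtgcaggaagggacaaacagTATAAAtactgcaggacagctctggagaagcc

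Both strands were searched for 4 motifs. These were ACCACA, the core that RUNX proteins recognise, the AP-1 site with the letters TGANTCA, the TATA box with the letters TATAAA, and the CCAAT box. No motif overlapped another in these 3 windows. The ACCACA core began 168 bases before the start of IBSP and 70 bases before that of SPP1, and it had no match in the window of COL10A1. It was present in 14.1% of 20664 annotated promoters of the same length. A TATA box began 34 bases before the start of IBSP, on the other strand and so printed as TTTATA, and 32 bases before the start of COL10A1. It was present in 10.4% of all promoters and had no match in that of SPP1. A CCAAT box lay 60 bases before IBSP, on the other strand and so printed as ATTGG, and 171 bases before SPP1, against 32% of all promoters. TGANTCA had no match in the 3 windows and was in 5.48% of promoters. A match describes letters only, and binding was not measured.

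Library totals were 12.5 to 19.3 M counts in Hyperloaded libraries and 12.5 to 24.9 M in Control libraries. Levels are given as CPM, counts brought to a library total of 1 M after that total was multiplied by a TMM factor, which ran between 0.867 and 1.36 in Hyperloaded and between 0.713 and 1.07 in Control libraries. A floor of 3 counts was worth 0.137 to 0.257 CPM in Hyperloaded and 0.113 to 0.283 CPM in Control libraries, and covers counting error only. COL2A1, the main collagen of cartilage, and the proteoglycan gene ACAN were detected in every library, while the chondrocyte markers SNORC and CNMD were at or below the floor in Hyperloaded 4 and 6. COL2A1 covered 1733 to 143938 CPM in Hyperloaded and 118139 to 628485 CPM in Control libraries. Skeletal muscle markers summed to 28971, 804 and 3043 CPM in Hyperloaded 2, 3 and 6, to between 21.9 and 84.4 CPM in the other Hyperloaded libraries, and to between 6.03 and 140 CPM in Control libraries. In bulk tissue, fewer cells of a type and less RNA per cell cannot be told apart.

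IBSP and SPP1 showed no called difference between the groups, and both spread far more widely among Hyperloaded than among Control libraries, with the lowest levels of each in the same Hyperloaded libraries. COL10A1 was abundant in 1 Hyperloaded library and near the floor in the others. RUNX2 was at or near the floor throughout. The groups overlapped for each of the 4 members, as for all but 6.79% of the 12597 genes. In edgeR's quasi-likelihood test with Benjamini-Hochberg adjustment, 0 of the 2 members past the count minimum passed an adjusted p of 0.05, against 19.3% of all 12597 genes tested (10.8% higher and 8.45% lower). Neither of these had an unadjusted p under 0.05. DESeq2 also called 0 of them, and limma voom with sample quality weights called 1, IBSP. In the same edgeR test run with no count minimum, 0 of the other 2 members passed, against 12.4% of 19019 genes (7.53% higher and 4.85% lower), although the unadjusted p of COL10A1 was 0.00935.

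**Figure D1:**
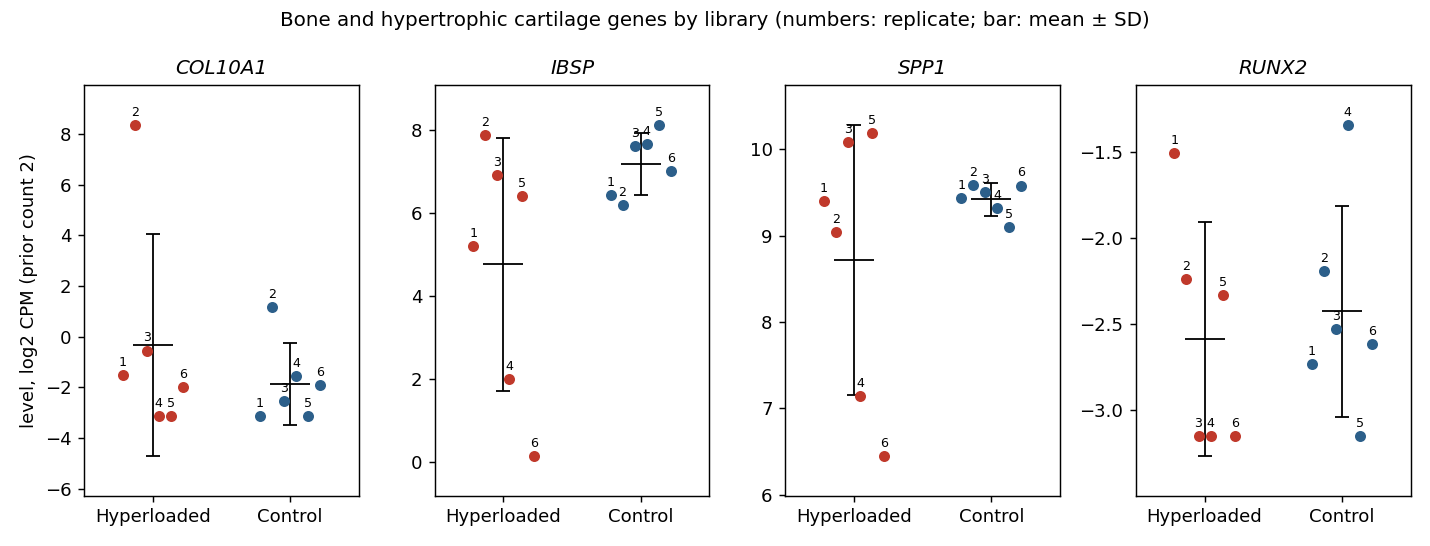
Levels of COL10A1, IBSP, SPP1 and RUNX2 in each library, in log2 CPM (prior count 2), in 6 Hyperloaded (red, left) and 6 Control libraries (blue, right), with replicate numbers beside the points and bars for the mean ± SD; the vertical scales differ between genes. Hyperloaded 4 and 6 are the lowest libraries for IBSP and SPP1, and Hyperloaded 2 stands alone for COL10A1 at 329 CPM.

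Per kb of merged exon, the members kept a steep order of levels. The median for SPP1 was 391 CPM per kb in Hyperloaded and 461 CPM per kb in Control libraries. The median for IBSP was 38.5 CPM per kb in Hyperloaded and 103 CPM per kb in Control libraries. SPP1 was above IBSP in every library. The median for COL10A1 was 0.0884 CPM per kb in Hyperloaded and 0.0499 CPM per kb in Control libraries, and that for RUNX2 was 0.00740 CPM per kb in Hyperloaded and 0.00960 CPM per kb in Control libraries. COL10A1 and RUNX2 overlapped in their ranges in both groups and differed by no more than their spread, apart from Hyperloaded 2, where COL10A1 reached 155 CPM per kb and stood level with IBSP.

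COL10A1, the defining collagen of hypertrophic chondrocytes, had 4, 6637, 9, 0, 0 and 3 counts in Hyperloaded 1 to 6, and 0, 40, 1, 4, 0 and 3 counts in Control 1 to 6. These were 0.239, 329, 0.571, 0, 0 and 0.137 CPM in the Hyperloaded libraries, and 0, 2.12, 0.0603, 0.225, 0 and 0.152 CPM in the Control libraries. Hyperloaded 2 was far above every other library, Control 2 was the next highest, and the remaining libraries of both groups overlapped within about the same few counts. Summed over libraries, 6653 counts fell in the Hyperloaded and 48 in the Control group.

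The fit without a count minimum gave COL10A1 a log2 fold change of 6.93 (SE 2.28, 95% interval 2.01 to 11.84, adjusted p = 0.0621 by edgeR's quasi-likelihood test). Without Hyperloaded 2 the log2 fold change was -1.14, with an adjusted p of 0.561. The mean log2 CPM was -0.33 ± 4.38 in Hyperloaded and -1.86 ± 1.61 in Control libraries (SD, n = 6 each), and the difference of 1.53 had p = 0.604 in a 2-sided exact permutation test of 6 against 6 libraries, for which the smallest possible p is 0.00216. The value thus rested on Hyperloaded 2, and its side of the threshold moved with other libraries and settings: the adjusted p was 0.0490 without Hyperloaded 1, 0.0418 without Hyperloaded 5, 0.0480 with library size as the only scaling, and 0.974 with limma voom.

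Among the 12103 genes with at least 30 counts in Hyperloaded 2, COL10A1 had the largest ratio of that library to the highest of the other 11 libraries, at 155. There were 62 such genes with a ratio of at least 10, and 42 of them had a symbol. The genes named from this ranking were chosen after their values were seen. Most of those with a symbol are genes of striated muscle, among them ANKRD2 with a ratio of 44.7 and CSRP3 with 34.04. KLHL40, ANKRD1, LMOD2, MYF6, MYL3, NRAP and MYH8 are further examples. Only a few others belong to bone remodelling. ATP6V0D2, a proton pump subunit of osteoclasts, had 7.59 CPM in Hyperloaded 2, at most 0.317 CPM in the other Hyperloaded libraries and 0 in every Control library, a ratio of 23.9. MMP9, a gelatinase abundant in osteoclasts and neutrophils, had 112 CPM in Hyperloaded 2, against 5.47 CPM in the next library, Control 2, a ratio of 20.6. DMP1, a matrix phosphoprotein of osteocytes, had 64.4 CPM in Hyperloaded 2, against 6.16 CPM in Control 2, a ratio of 10.5.

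Further genes of the growth plate and of osteoclasts in that library are given with their values known. MMP13, the collagenase of late hypertrophic chondrocytes, had 41.7 CPM in Hyperloaded 2, and its next highest level was 11.0 CPM in Hyperloaded 1. PHEX, a peptidase of osteoblasts and osteocytes, had 5.01 CPM in Hyperloaded 2, against 2.82 CPM in Control 4. The osteoclast receptor CALCR had 2.08 CPM there and 1.04 CPM in Hyperloaded 4. OSCAR, DCSTAMP and OCSTAMP reached 0.695, 0.496 and 0.447 CPM in Hyperloaded 2, the highest of any library for each. These 3 levels rest on only 14, 10 and 9 counts. Other genes of the same lists were not highest there. IHH, the signal of prehypertrophic chondrocytes, had 3.13 CPM in Hyperloaded 2, against 4.22 CPM in Control 4. PTH1R, the receptor that holds chondrocytes before hypertrophy, had 33.8 CPM in Hyperloaded 2, against 89.6 CPM in Control 4. NFATC1, at 31.9 CPM, and the osteoblast factor CREB3L1, at 74.6 CPM, were at their lowest Hyperloaded level there. Over the 6 lists described below, Hyperloaded 2 was the highest library for 15 of 45 genes, among them 6 of 8 osteoclast markers and 2 of 9 growth plate signals. The share of all genes that were highest in Hyperloaded 2 was not counted, so no excess is read from these numbers. The summed level of the osteoclast markers was 159 CPM in Hyperloaded 2 and 247 CPM in Hyperloaded 5, the highest library for that sum. NFATC1, which is not confined to osteoclasts, made up 242 CPM of the sum in Hyperloaded 5. MMP9 made up 112 CPM of that in Hyperloaded 2, against 2.91 CPM in Hyperloaded 5. Hyperloaded 2 also had the highest sum of muscle markers, and its COL2A1 was at 21699 CPM. Whether tissue taken with the annulus had a part in these levels was not tested, and within 1 library the hypertrophic, osteoclast and muscle transcripts cannot be told apart by source.

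**Figure D2:**
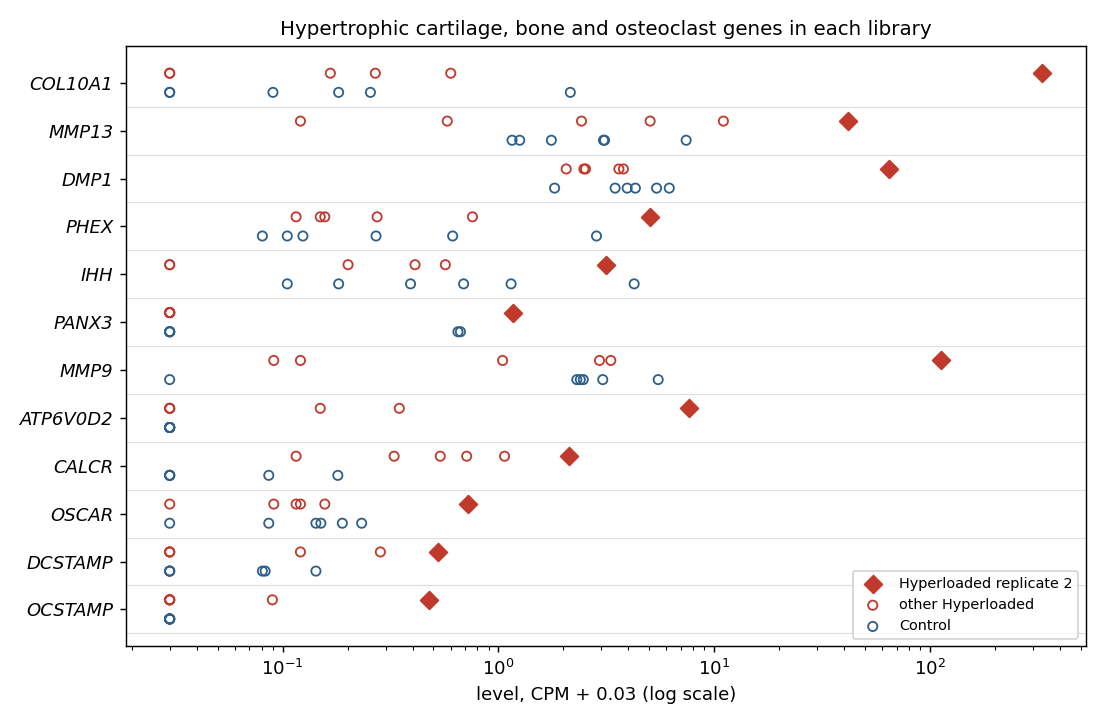
Levels of hypertrophic cartilage, bone and osteoclast genes in each library, as CPM plus 0.03 on a log axis, with Hyperloaded 2 as filled red diamonds, the other Hyperloaded libraries as open red circles and the Control libraries as open blue circles below them. The genes were picked with their values known, and Hyperloaded 2 is the highest library for all of them but IHH, by the widest margin for COL10A1 at 329 CPM against 2.12 CPM in Control 2. Other genes of the same lists are not drawn, among them PTH1R, NFATC1 and TNFRSF11A, which were highest in another library. Over the 6 lists, Hyperloaded 2 was highest for 15 of 45 genes.

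IBSP, which encodes bone sialoprotein, had 37.0, 236, 120, 3.91, 84.2 and 1.00 CPM in Hyperloaded 1 to 6, and 86.5, 73.5, 194, 203, 279 and 130 CPM in Control 1 to 6. Hyperloaded 1, 4 and 6 lay below every Control library, and the other 3 Hyperloaded libraries lay within the Control range, so that the groups overlapped. The 2 lowest libraries still held 64 counts in Hyperloaded 4 and 22 counts in Hyperloaded 6. The highest level was 235 times the lowest among Hyperloaded libraries and 3.79 times the lowest among Control libraries.

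IBSP averaged 80.3 ± 89.1 CPM in Hyperloaded and 161 ± 78.6 CPM in Control libraries (SD, n = 6 each). Its log2 fold change was -1.0 (SE 0.89, 95% interval -2.91 to 0.91, adjusted p = 0.432 by edgeR's quasi-likelihood test), and this interval holds changes in both directions. On the log2 CPM scale, where low libraries weigh more, the mean was 4.76 ± 3.03 in Hyperloaded and 7.17 ± 0.75 in Control libraries, and the difference was -2.41 (p = 0.0844, 2-sided exact permutation test, n = 6 each). The sign was the same in every alternative run, but the call was not. limma voom, which gives less weight to libraries that vary more, gave -3.42 with an adjusted p of 0.0236. The exact test gave -3.04 (p = 0.0152) without Hyperloaded 2 and -2.84 (p = 0.0411) without Hyperloaded 3.

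SPP1, which encodes osteopontin, had 675, 529, 1090, 141, 1172 and 87.3 CPM in Hyperloaded 1 to 6, and 692, 772, 725, 638, 548 and 766 CPM in Control 1 to 6. Hyperloaded 2, 4 and 6 lay below every Control library and Hyperloaded 3 and 5 above every one, with only Hyperloaded 1 inside the Control range. The ratio of the highest to the lowest level was 13.4 among Hyperloaded and 1.41 among Control libraries. SPP1 averaged 616 ± 458 CPM in Hyperloaded and 690 ± 85.8 CPM in Control libraries (SD, n = 6 each).

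The log2 fold change of SPP1 was -0.16 (SE 0.51, 95% interval -1.27 to 0.94, adjusted p = 0.839 by edgeR's quasi-likelihood test). Mean log2 CPM was 8.72 ± 1.57 in Hyperloaded and 9.42 ± 0.19 in Control libraries, a difference of -0.70 (p = 0.394, 2-sided exact permutation test, n = 6 each). The sign of this small value turned to 0.04 without Hyperloaded 4 and to 0.06 without Hyperloaded 6. No test of the spread itself was run, and the wider spread is given as a description.

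The 2 lowest values of IBSP and of SPP1 fell in the libraries with the least cartilage RNA. Hyperloaded 4 and 6 had the lowest IBSP, the lowest SPP1 and the lowest COL2A1, at 3215 CPM in Hyperloaded 4 and 1733 CPM in Hyperloaded 6. The 11 chondrocyte markers in the table summed to between 4644 and 163651 CPM in Hyperloaded libraries, with a median of 31812, and to between 135268 and 688545 CPM in Control libraries, with a median of 273679. SNORC, a proteoglycan of chondrocytes, was at 0 in Hyperloaded 4 and 6. The relation was not one of strict order. Hyperloaded 1 had IBSP below every Control library, at 37.0 CPM, yet the most COL2A1 of the Hyperloaded group, at 143938 CPM and inside the Control range. Hyperloaded 2 had 21699 CPM of COL2A1, below every Control library, and yet the second highest IBSP level of all 12 libraries. The part of cartilage content in these levels was not tested.

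Set against COL2A1 within a library, SPP1 was in higher proportion in most Hyperloaded libraries. Per 1000 of COL2A1 CPM, SPP1 was at 4.69, 24.4, 39.1, 43.9, 12.0 and 50.4 in Hyperloaded 1 to 6, and at 3.27, 2.25, 2.63, 1.01, 3.32 and 6.49 in Control 1 to 6. All Hyperloaded libraries but Hyperloaded 1 were above the highest Control library, Control 6. The ratio of IBSP to COL2A1 overlapped more, between 0.257 and 10.9 per 1000 in Hyperloaded and between 0.214 and 1.69 per 1000 in Control libraries. These ratios were not tested and carry the lower COL2A1 of the Hyperloaded group in their denominator, for which the log2 fold change was -2.56 (adjusted p = 0.0690 by edgeR's quasi-likelihood test).

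Against COL1A2, a chain of the type I collagen of the fibrous annulus, the medians stood the other way. SPP1 was at 0.715 to 8.63 per 1000 of COL1A2 CPM in Hyperloaded, with a median of 4.25, and at 2.46 to 17.1 per 1000 in Control libraries, with a median of 8.87. IBSP was at 0.00898 to 3.84 per 1000 in Hyperloaded, with a median of 0.281, and at 0.699 to 5.45 per 1000 in Control libraries, with a median of 1.13. The ratio of IBSP to SPP1 had a median of 63.3 per 1000 in Hyperloaded libraries, with a range of 11.5 to 445, and a median of 219 per 1000 in Control libraries, with a range of 95.2 to 509. The ranges overlapped, and the difference was not tested.

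**Figure D3:**
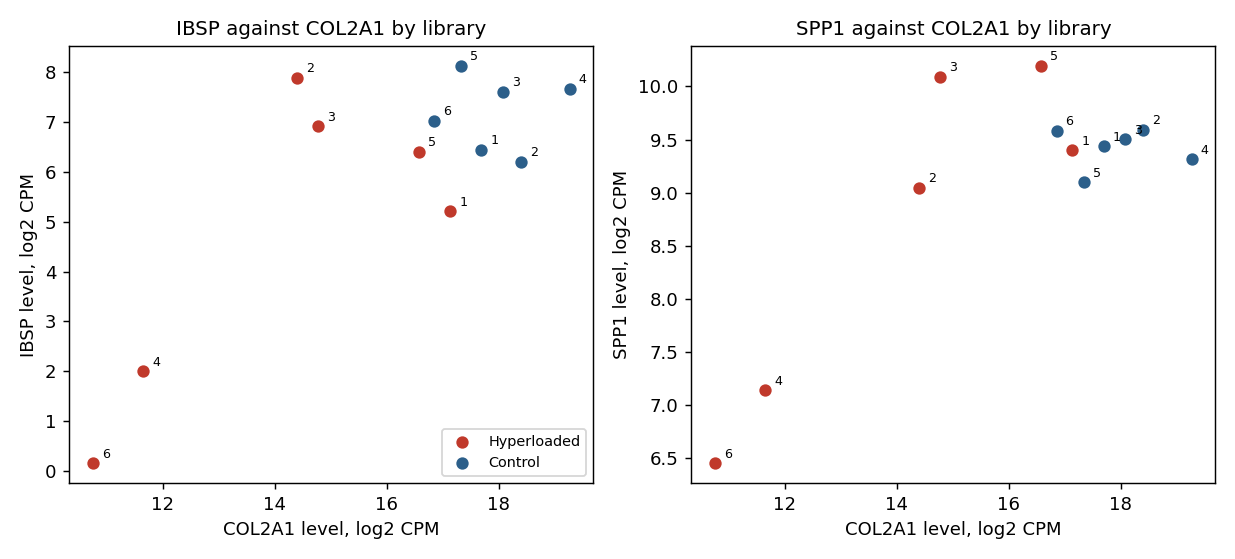
Level of IBSP (left) and SPP1 (right) against the level of COL2A1 in each library, both axes in log2 CPM (prior count 2), Hyperloaded in red and Control in blue, with replicate numbers. Hyperloaded 4 and 6 hold the lowest levels of all 3 genes, while Hyperloaded 2 and 3 have low COL2A1 with IBSP inside the Control range.

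RUNX2, the transcription factor that opens the osteoblast and hypertrophic programmes, had 4, 2, 0, 0, 1 and 0 counts in Hyperloaded 1 to 6, and 1, 2, 1, 5, 0 and 1 counts in Control 1 to 6. The sums were 7 counts in the Hyperloaded and 10 counts in the Control group, so most libraries were at or below the floor of 3 counts and no direction is read from them. A difference was not detectable at this depth (adjusted p = 0.812 in edgeR's quasi-likelihood test with no count minimum), and the exact permutation test gave p = 0.665 (2-sided, n = 6 each).

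The genes nearest IBSP on chromosome 8 include other members of the same glycoprotein family. SPP1, MEPE, IBSP and DMP1 lay within 242 kb, with 123 kb between SPP1 and IBSP, 9.86 kb between MEPE and IBSP and 63.2 kb between IBSP and DMP1. These neighbours had unlike patterns. MEPE, a product of osteocytes, had at most 0.248 CPM in Hyperloaded and at most 0.338 CPM in Control libraries. DMP1 had 3.58, 64.4, 2.03, 2.50, 3.77 and 2.46 CPM in Hyperloaded 1 to 6, and 5.37, 6.16, 3.92, 4.28, 1.79 and 3.44 CPM in Control 1 to 6. Its log2 fold change of 1.65 (adjusted p = 0.181 by edgeR's quasi-likelihood test) became -0.55 without Hyperloaded 2. In Hyperloaded 4 and 6, where IBSP and SPP1 were lowest, DMP1 was within the range of the Control libraries, although below all of these but Control 5.

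The genes most like each tested member were taken as the 5 with the highest Pearson r of log2 CPM over the 12 libraries, among 8390 other tested genes with a symbol. For IBSP these were LBP (r = 0.930), HERC3 (0.896), TTLL4 (0.880), DYSF (0.878) and CDK16 (0.874). After the group means were subtracted, r was 0.923 for LBP and between 0.828 and 0.856 for the other 4. HERC3 lay 741 kb from IBSP on chromosome 8. For SPP1 the nearest were GCNT1 (r = 0.891), CHI3L1 (0.884), ZNF385B (0.879), CHST11 (0.874) and MYO10 (0.871). CHI3L1 is a secreted glycoprotein of chondrocytes and macrophages, and CHST11 a sulfotransferase for chondroitin. None of the 10 genes passed the test between groups, and each r is a description in which the points share 2 groups and a strong cartilage contrast.

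Other genes of bone and hypertrophic cartilage were taken from 6 lists of regulators, mineral handling, growth plate signals, osteoblast and osteocyte products, receptors and osteoclast markers. Of 63 genes listed, 45 were in the table and 34 passed the count minimum. Among these 34, 4 rose, 2 fell and 28 did not pass in edgeR's test, so that 17.6% were called, against 19.3% of all genes tested.

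Among 7 tested regulators of osteoblast and hypertrophic fate, 1 rose and 0 fell, and the median log2 fold change was 0.19, against 0.0049 over all genes. TWIST2, a repressor of RUNX2 activity in the mouse, averaged 5.24 ± 2.84 CPM in Hyperloaded and 1.70 ± 0.81 CPM in Control libraries, a log2 fold change of 1.63 (SE 0.45, adjusted p = 0.0278 by edgeR's quasi-likelihood test). WWTR1, a transcriptional co-activator, averaged 41.2 ± 13.5 CPM in Hyperloaded and 68.4 ± 23.2 CPM in Control libraries and did not pass (log2 fold change -0.73, adjusted p = 0.0636 in the same test). The homeobox gene MSX1 was at 2.04 ± 0.77 CPM in Hyperloaded and 3.20 ± 2.63 CPM in Control libraries, with no call.

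Of 7 tested genes of phosphate, pyrophosphate and mineral handling, 0 rose and 1 fell, with a median log2 fold change of -0.33. SMPD3, the neutral sphingomyelinase needed for mineralisation in the mouse, averaged 4.14 ± 5.39 CPM in Hyperloaded and 22.3 ± 5.38 CPM in Control libraries. Every Hyperloaded library, at 0.305 to 14.6 CPM, was below every Control library, at 15.7 to 28.6 CPM, a separation in that direction that 2.98% of all tested genes had. Its log2 fold change was -2.42 (SE 0.66, adjusted p = 0.0263 by edgeR's quasi-likelihood test), and -3.42 without Hyperloaded 1. ANKH, a pyrophosphate exporter, was at 55.7 ± 30.6 CPM in Hyperloaded and 95.6 ± 17.7 CPM in Control libraries, and NT5E, which makes adenosine from AMP, at 101 ± 82.4 CPM in Hyperloaded and 218 ± 39.8 CPM in Control libraries. Neither passed.

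Of 7 tested growth plate and hypertrophy signals, 0 rose and 1 fell, with a median log2 fold change of -1.30. PTCH1, the hedgehog receptor and a target of that pathway, averaged 11.5 ± 8.99 CPM in Hyperloaded and 61.5 ± 72.2 CPM in Control libraries, a log2 fold change of -2.41 (SE 0.76, adjusted p = 0.0438 by edgeR's quasi-likelihood test). Control 4 alone was at 197 CPM, and without it the log2 fold change of PTCH1 was -1.58 and the call was lost (adjusted p = 0.120 by edgeR). FGFR3, a receptor that restrains growth plate chondrocytes, was at 8.52 ± 9.26 CPM in Hyperloaded and 28.5 ± 9.06 CPM in Control libraries, with 0.550 CPM in Hyperloaded 4 and 0.728 CPM in Hyperloaded 6, and did not pass (adjusted p = 0.0951 in the same edgeR test). SCIN, an actin-severing protein, was at 15.7 ± 4.60 CPM in Hyperloaded and 41.5 ± 29.9 CPM in Control libraries, with no call. The falls of SMPD3 and PTCH1 stood beside that of chondrocyte markers, of which 2 of 10 tested fell and 0 rose, with a median log2 fold change of -2.14. For comparison, 8.45% of all genes fell. The marker count of 2 was 1 without Hyperloaded 2 and 6 without Hyperloaded 1. It was 5 with DESeq2 or library size only and 9 with limma voom. Over all genes, 1065 were lower with every library, 911 without Hyperloaded 2 and 1198 without Hyperloaded 1. DESeq2 called 1471 of all genes lower, library size only 327 and limma voom 1829. Marker and all-gene counts thus moved the same way, except with library size only, where more markers but fewer of all genes fell. The part of cartilage content in the falls of SMPD3 and PTCH1 was not tested.

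The receptors that bind osteopontin and bone sialoprotein were higher after loading in 3 of 6 tested cases, and 0 fell, against 10.8% of all genes that rose. Their median log2 fold change was 0.91. ITGA4, an integrin chain of leukocytes that binds osteopontin, averaged 13.7 ± 6.52 CPM in Hyperloaded and 3.29 ± 2.02 CPM in Control libraries, a log2 fold change of 2.05 (SE 0.42, adjusted p = 0.0104 by edgeR's quasi-likelihood test). The surface glycoprotein CD44 was at 188 ± 115 CPM in Hyperloaded and 66.6 ± 30.4 CPM in Control libraries (log2 fold change 1.5, adjusted p = 0.0229 in the same edgeR test). For ITGA4 and CD44, every Hyperloaded library was above every Control library, as for 3.81% of all tested genes. For ITGA4 the margin was very small, with 6.76 CPM in Hyperloaded 5 (79 counts) against 6.73 CPM in Control 6 (133 counts). By library totals alone, without TMM factors, Hyperloaded 5 was lower than Control 6 for ITGA4. The 79 counts were of 12.5 M in Hyperloaded 5, and the 133 counts were of 20.5 M in Control 6. The lowest Hyperloaded level of CD44 was 106 CPM, against at most 97.1 CPM in Control libraries. This separation also rested on the TMM factors. By library totals alone, Hyperloaded 1, with 1774 of 19.3 M counts, was below Control 3, with 1611 of 16.6 M. ITGB3, a chain of the vitronectin receptor, was at 28.9 ± 13.9 CPM in Hyperloaded and 12.0 ± 2.34 CPM in Control libraries (log2 fold change 1.27, adjusted p = 0.0147 in that test), with overlap. Macrophages also carry several of these receptors, and 9 of 11 tested macrophage and monocyte markers rose while 0 fell, with a median log2 fold change of 1.93. The 12 macrophage markers in the table summed to 200 to 369 CPM in Hyperloaded and 34.02 to 200 CPM in Control libraries, and their part in the receptor levels was not tested.

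Of 5 tested osteoblast and osteocyte products, 0 passed the test, and the median log2 fold change was 0.31. DMP1 is described above. PDPN, a glycoprotein of early osteocytes, was at 11.8 ± 7.67 CPM in Hyperloaded and 14.8 ± 7.72 CPM in Control libraries, and TNFRSF11B (osteoprotegerin, the decoy receptor that limits osteoclasts) at 24.3 ± 13 CPM in Hyperloaded and 14.8 ± 13.4 CPM in Control libraries. Of the osteoclast markers, 8 were in the table and only NFATC1 and TNFRSF11A passed the count minimum. NFATC1, a transcription factor of osteoclasts and other cells, was at 124 ± 87.6 CPM in Hyperloaded and 71.0 ± 70.9 CPM in Control libraries, and TNFRSF11A (RANK) at 2.17 ± 0.85 CPM in Hyperloaded and 2.55 ± 1.09 CPM in Control libraries, with no call for either.

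CALCR, a defining receptor of osteoclasts, was under the count minimum and was chosen after its values were seen. It had 0.299, 2.08, 0.508, 1.04, 0.0856 and 0.683 CPM in Hyperloaded 1 to 6, and 0.150, 0, 0, 0.0563, 0 and 0 CPM in Control 1 to 6. These were 5, 42, 8, 17, 1 and 15 counts in Hyperloaded 1 to 6, and 4, 0, 0, 1, 0 and 0 counts in Control 1 to 6. Hyperloaded 5 and Control 4 were thus below the floor of 3 counts, and Hyperloaded 5 was inside the Control range. The adjusted p of CALCR was 0.0168 in edgeR's quasi-likelihood test with no count minimum. The other 5 osteoclast markers under the minimum did not pass in that fit, with adjusted p of 0.616 for OSCAR, 0.306 for DCSTAMP, 0.156 for OCSTAMP, 0.177 for MMP9 and 0.0900 for ATP6V0D2.

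**Figure D4:**
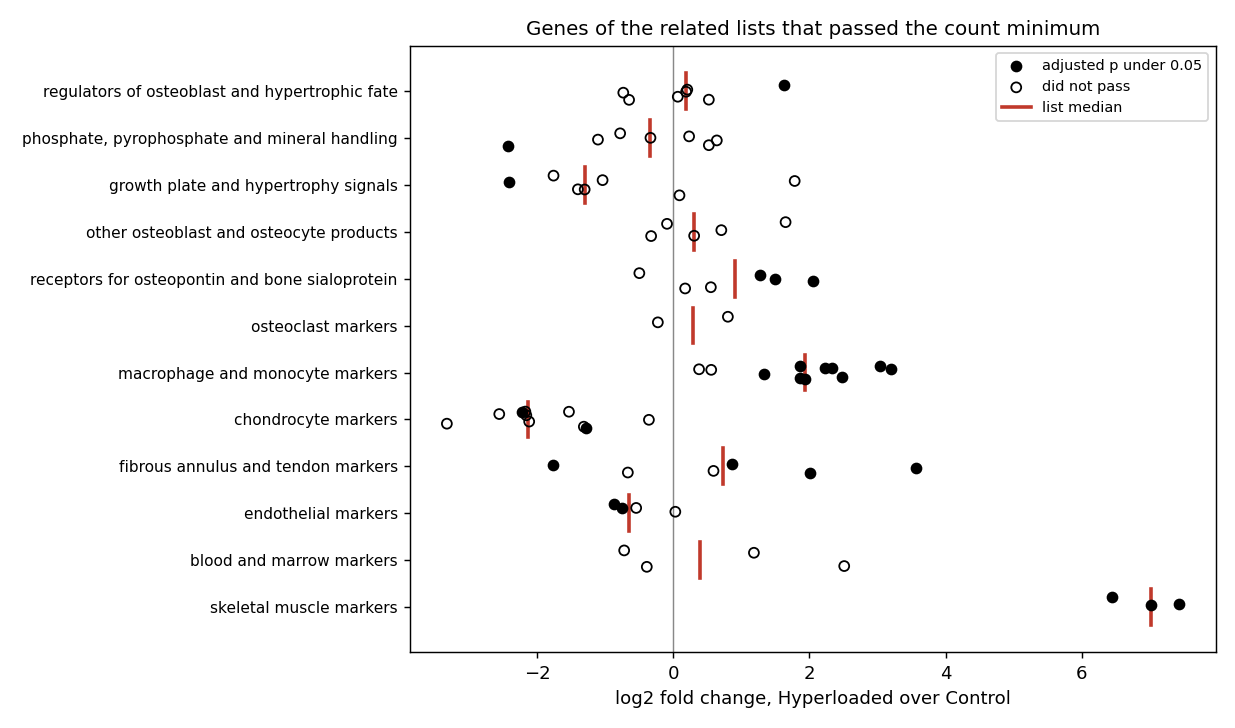
Log2 fold change, Hyperloaded over Control, of each gene past the count minimum in 12 lists of bone and cartilage genes and cell type markers, with filled points for an adjusted p under 0.05, open points for the rest and a red bar for the median of each list. The receptor list has a median of 0.91, the growth plate list -1.30, the chondrocyte markers -2.14 and the macrophage markers 1.93.

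Several of these calls were close to the threshold. Leaving out single libraries ended the call of TWIST2 without Hyperloaded 3, 4 or 6 or Control 1, 2 or 4 (adjusted p 0.0512 to 0.0675), that of SMPD3 without Hyperloaded 3 or 6 or Control 2, 3 or 4 (0.0506 to 0.0538), that of PTCH1 without any of Hyperloaded 2 to 6 or Control 2 to 4 (0.0606 to 0.120; also 0.0544 with limma voom and 0.0526 with no count minimum), and that of CD44 without Control 2 (0.0543), all by edgeR's quasi-likelihood test. ITGA4 and ITGB3 passed without each of the 12 libraries in turn. Calls were also gained by the same edgeR test. ANKH, NT5E and FGFR3 passed without Hyperloaded 5 (log2 fold changes -1.02, -1.55 and -2.38, with adjusted p 0.0315, 0.0261 and 0.0297). WWTR1 passed without Hyperloaded 3 or Control 6 (-0.87 and -0.84, adjusted p 0.0477 and 0.0414), and SCIN without Control 5 or 6 (both -1.62, adjusted p 0.0288 and 0.0369). With all 12 libraries, DESeq2 called WWTR1 (adjusted p = 0.0372), FGFR3 (0.0416) and SCIN (0.0343) as lower. limma voom called WWTR1 (adjusted p = 0.013), ANKH (0.019), NT5E (0.0207) and FGFR3 (0.00507) as lower. Without Hyperloaded 2, 3 and 6, which held the most muscle RNA, 0 genes of all 12 lists passed in either direction, with 3 Hyperloaded libraries left, where over all 12698 genes tested 127 were higher and 40 lower, against 1361 and 1065 of 12597 with every library. In that fit the log2 fold change was 2.00 for ITGA4, 0.46 for ITGB3 and 0.82 for CD44.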

How the data were processed

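Polyadenylated RNA of snap-frozen ventral annuli was sequenced in 12 TruSeq libraries, 6 from 4 Hyperloaded and 6 from 6 Control pigs. Per the labels and the methods of the study, the authors converted base calls with CASAVA, used JMP Genomics to map reads on Sscrofa11.1, and deposited a table of expected counts per Ensembl gene without normalization. How reads shared by several genes were split is not given in the sources used here, so that genes with near copies are less certain. The depth was 12.5 to 24.9 M expected counts per library, and no row lacked a gene identifier.

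Groups came from the treatment label. The 4 pigs behind the 6 Hyperloaded libraries, the loading interval and the sex of each pig were not in the labels and entered no comparison. Symbols were matched by gene identifier, and 11700 of 22198 identifiers had one. The members and all gene lists were chosen with earlier results of these data known, so that no p-value is given over a list.

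Expected counts were rounded to whole numbers and scaled by TMM. A gene was tested if all libraries of either group had 10 or more counts (12597 genes). The test was the 2-sided quasi-likelihood test of edgeR (version 4.0.16, R 4.3.3) without covariates, Benjamini-Hochberg adjusted across the 12597 genes, at a threshold of 0.05. This minimum lets in a gene that is low in 1 group only if it is high in the other. COL10A1 and RUNX2 came from the same fit with no count minimum (19019 genes with a count above 0). Standard errors were derived from the F statistic. Log2 CPM used a prior count of 2, and each member was also compared by an exact permutation test of 6 against 6 libraries. The study itself analysed TPM values by analysis of variance, and TPM values were not used here. The scripts were tested on simulated data. COL1A1 was not in the table under its identifier, and COL1A2 took its place in the ratios, a change from the planned ratio.

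The text names all members, up to 3 tested genes with the smallest p in each list, and the 5 genes most like each tested member. Genes outside this rule were also named with their values known, for Hyperloaded 2, the osteoclast markers and the fibrous annulus. MEPE and the cartilage genes COL2A1, ACAN, SNORC and CNMD were named beyond it as well. Alternatives were upper quartile factors, library size only, DESeq2 1.42.0, limma voom (limma 3.58.1) with sample quality weights, other count minimums, a replicate block, a prior count of 0.5, and leaving out libraries singly, the 3 with most muscle RNA, the 2 that clustered with the controls in earlier results and the 3 without raw data. Promoters were read from the RefSeq assembly of Sscrofa11.1 by the symbol of each gene.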

Additional observations from a re-analysis of the deposited data

Results flagged for a closer look

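COL10A1 in Hyperloaded 2, at 329 CPM, stood far above the other Hyperloaded libraries on the log2 CPM scale. Its gap to the nearest of them was 0.774 of the range of the group, which is above the 95% critical value of Dixon for 6 samples. COL10A1 in Control 2, at 2.12 CPM, stood above the other Control libraries in the same way, with a gap of 0.632 of the range. The second value is close to the critical value and rests on 40 counts. Of the 8 groups checked, over 4 genes, these 2 were flagged, and chance flags about 1 in 20 groups.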

How the results depend on the processing

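Log2 fold changes are Hyperloaded over Control. With library size as the only scaling, the median over all genes was 0.28, against 0.0049 with TMM, and 1969 genes were higher and 327 lower, against 1361 and 1065 with TMM and 1129 and 1419 with upper quartile factors. That scaling gave COL10A1 7.42 (adjusted p = 0.0480), PDPN 0.027 and TNFRSF11A 0.11. limma voom gave COL10A1 -0.091, IBSP -3.42 (1 member lower, against 0), DMP1 -0.42, TNFRSF11B -0.16, TNFRSF11A 0.011 and ALAS2 0.46. Over all 12 lists 19 genes were higher and 7 lower. The lower count was 13 with DESeq2, 20 with limma voom and 19 without Hyperloaded 1 and 5, where 1471, 1829 and 1911 of all genes were lower. Both counts were 0 without Hyperloaded 2, 3 and 6, where 127 of all genes were higher and 40 lower. The last setting gave COL10A1 -2.24, RUNX2 0.26 and DMP1 -0.35. Without Hyperloaded 1 and 5, COL10A1 was 7.51 (adjusted p = 0.0263 by edgeR) and NFATC1 -0.032. These 2 libraries were left out because they clustered with the controls in these same data, a choice that favours larger group differences. In that setting 4050 of all genes were called, against 2426 with every library, so its p-values are no independent check. Without the 3 libraries that had no raw data, ALAS2 was 0.41. The cause of these shifts was not tested.

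Leaving out single libraries gave -1.14 (without Hyperloaded 2) to 9.15 (without Control 2) for COL10A1, -1.71 to -0.74 for IBSP, -0.46 to 0.062 for SPP1, -1.23 to 0.33 (without Control 4) for RUNX2, -0.55 (without Hyperloaded 2) to 1.87 for DMP1 and -1.19 to 0.33 (without Control 6) for ALAS2. In the lists, 12 (without Control 2) to 21 genes (without Hyperloaded 5) were higher, where 724 and 1767 of all genes were higher. Between 3 (without Hyperloaded 6) and 11 (without Hyperloaded 1) were lower, where 512 and 1198 of all genes were lower. The differences of the exact test ranged between -0.21 (without Hyperloaded 2) and 2.13 for COL10A1, -3.04 and -1.49 for IBSP, -0.996 and -0.25 for SPP1, and -0.38 and 0.056 (without Control 4) for RUNX2. IBSP and SPP1 were on the same side of the threshold in every edgeR fit.

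The groups were of different pigs, and the labels give no pairing by replicate number. Deviations of same-numbered libraries correlated at -0.12 to 0.26, over 0.1 in 3 of 6 pairs. Differently numbered libraries were not compared in this way, so these values cannot decide whether the numbers pair the samples. With the replicate block, 1744 genes were called, against 2426, COL10A1 was 4.94, IBSP -2.11 and SPP1 -0.64 with no call, and ALAS2 was 0.067. The block ended the calls of PTCH1 (adjusted p = 0.149), COL11A1 (0.0672), ACTA1 (0.0818), TNNC2 (0.0729) and ENO3 (0.0737). Depth limits RUNX2, with 7 against 10 counts in all, so that its values here carry no direction, and COL10A1 outside Hyperloaded 2 and Control 2, where it had at most 9 counts.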

Other observations

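Of 6 tested markers of the fibrous annulus and of tendon, 3 rose and 1 fell in edgeR's quasi-likelihood test, and the median log2 fold change was 0.73. Of all genes tested, 10.8% rose and 8.45% fell. COL3A1, which encodes type III collagen, fell (log2 fold change -1.76, adjusted p = 0.0381), and FMOD and COL1A2 were not called, at -0.67 and 0.59; these 3 genes were named after their values were seen. TNMD, a membrane protein of tendon and ligament cells, averaged 391 ± 225 CPM in Hyperloaded and 33.0 ± 46.5 CPM in Control libraries (log2 fold change 3.57, adjusted p = 0.0220), but its adjusted p was 0.0520 without Control 2, and its log2 fold change was 4.73 without Control 6. Its level was 737 CPM in Hyperloaded 4 and 594 CPM in Hyperloaded 6, the libraries with the least IBSP and SPP1. THBS4, a matrix protein of tendon, averaged 796 ± 367 CPM in Hyperloaded and 199 ± 102 CPM in Control libraries (log2 fold change 2.00, adjusted p = 0.00710 in the same edgeR test), and MKX, a transcription factor of tendon, rose by 0.87 on the log2 scale (adjusted p = 0.0157 by edgeR). Among chondrocyte markers, COL11A2 and COL11A1 fell, with log2 fold changes of -2.22 and -1.29 (adjusted p 0.0127 and 0.0359 by edgeR). The call of COL11A1 was lost without Hyperloaded 2, 3, 4 or 6 or Control 2, 3 or 4 (adjusted p 0.0575 to 0.0822).

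Of 4 tested endothelial markers, 2 fell, beside 8.45% of all genes, and the median log2 fold change was -0.65. PECAM1, an adhesion molecule of endothelium, was at 259 ± 46.4 CPM in Hyperloaded and 436 ± 90.3 CPM in Control libraries, and ESAM at 24.5 ± 3.09 CPM in Hyperloaded and 44.9 ± 11.3 CPM in Control libraries (adjusted p 0.0154 and 0.00770 by edgeR). With library size as the only scaling neither passed, at -0.49 for PECAM1 (adjusted p = 0.141) and -0.60 for ESAM (adjusted p = 0.0634). Of 4 tested blood and marrow markers, 0 passed, with a median of 0.40. Without Control 6, 2 of them passed: CSF3R, the receptor for granulocyte colony-stimulating factor, at 3.67 (adjusted p = 0.0325 by edgeR), and MMP8, neutrophil collagenase, at 3.60 (adjusted p = 0.00835 by edgeR). In that fit, 1263 of 12618 genes were higher. CSF3R and MMP8 also passed with limma voom (adjusted p 0.0192 and 0.0111), where 1823 of 12597 genes were higher. All 3 tested skeletal muscle markers rose, against 10.8% of all genes, with a median of 7.02. Only ENO3 passed without Control 2 (adjusted p 0.0616 for ACTA1 and 0.0538 for TNNC2 by edgeR). ACTA1, skeletal actin, was at 20269 CPM in Hyperloaded 2 and 2038 CPM in Hyperloaded 6, against at most 85.5 CPM in Control libraries. Its log2 fold change of 7.43 (adjusted p = 0.0268 by edgeR) was 4.58 without Hyperloaded 2 (adjusted p = 0.0530), and the call was also lost without Control 1, 2 or 3.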
